A study of Mus musculus with 39 samples.

Results

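The cytosolic ribosome is built from ribosomal RNA and a fixed set of proteins of the large subunit (Rpl genes, and Rplp0, Rplp1 and Rplp2 of the stalk) and of the small subunit (Rps genes). Their genes were taken here by symbol, as Rpl or Rps followed by a number and an optional a, x or l, together with the 3 stalk genes. This found 88 of the 50559 rows of the count tables, 53 of the large and 35 of the small subunit. Of these, 85 passed the filter on low counts in the basolateral amygdala (BLA), 86 in the hippocampus (HP) and 86 in a fit over both tissues. Rpl10l and Rpl39l passed in neither tissue, and Rps12l1 failed in the BLA.

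Poly(A) RNA was sequenced from female mice aged 9 months on a C57BL/6 background. APP/Tau mice came from crosses of heterozygous APPSw,Ind mice (line J9, human amyloid precursor protein with the Swedish and Indiana mutations) with Tau P301S mice (line PS19, human tau with P301S), and control mice were wild type for both transgenes. All mice of both genotypes also carried CaMKIIα-Cre, which is active in glutamatergic neurons of the forebrain, and RiboTag, an Rpl22 allele that gains a haemagglutinin (HA) tag where Cre has acted. Trained mice were killed 1 h after cued fear conditioning, which pairs a tone with a foot shock, and naive mice had no such session. In the BLA there were 5 naive and 4 trained APP/Tau libraries and 5 naive and 5 trained control libraries, and in the hippocampus 5, 4, 5 and 6.

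The RNA was the input of the RiboTag procedure, taken from a cleared lysate with no pull-down. It holds RNA of all cell types present, and a change in the number of cells of a type cannot be told apart from a change in RNA per cell. The total count was 50.3 to 74.29 M per BLA library and 92.12 to 128.3 M per hippocampal library. The RNA input of a library was 10 ng for the BLA and 50 ng for the hippocampus, so that region and input amount go together. Of 7 hippocampal marker genes, 5 were higher in the hippocampus, and of 6 BLA markers 3 were higher in the BLA, where 8 of 9 markers of striatum and central amygdala were higher as well. Levels are in CPM, counts scaled to a common library size within a tissue by TMM factors, which correct for differences in RNA composition. Changes are log2 fold changes with their standard error (SE), and a gene was called changed at an adjusted p under 0.05 (edgeR quasi-likelihood test, adjusted over all genes tested).

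Most ribosomal proteins are needed in equal numbers, as each ribosome holds a single copy of them. Most of their mRNAs begin with a 5′ terminal oligopyrimidine (TOP) tract, through which mTOR signalling and the protein Larp1 set their translation together. The genes have few active loci but many processed pseudogenes, which are copies of the mRNA reinserted in the genome, so that short reads can match a gene and its copies alike. Rpl22 is of interest here because its protein carries the tag in the RiboTag allele, and its paralog Rpl22l1 is known to be held down by the Rpl22 protein.

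Sequence shared with copies bears on every count below, and the pairs shown are 3 whose gene and copy went in opposite directions between the regions and 1 that did so between libraries, all described below. In the transcripts of GENCODE M21 (build GRCm38, an older build than the mm39 of the counts), 82 members had a transcript. The median member had 49.7% of its 50-base windows, the length of a read, in no other gene, and the range was 1.35 to 100%. At least 1 pseudogene shared a window with 79 of the 82. The first 90 coding bases follow for a gene and its copy, 5′ to 3′, with the bases that differ within a pair in capitals.
Rpl10 (chrX:74270812-74273135, + strand): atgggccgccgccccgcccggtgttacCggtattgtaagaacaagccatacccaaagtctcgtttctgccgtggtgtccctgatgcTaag
Rpl10-ps5 (chr8:94222993-94223634, + strand): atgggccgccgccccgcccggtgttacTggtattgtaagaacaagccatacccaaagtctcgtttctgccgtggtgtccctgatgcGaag
Rps23 (chr13:90922958-90924950, + strand): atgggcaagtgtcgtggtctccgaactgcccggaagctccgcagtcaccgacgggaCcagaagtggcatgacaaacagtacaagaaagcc
Rps23-ps2 (chr8:3583799-3584230, - strand): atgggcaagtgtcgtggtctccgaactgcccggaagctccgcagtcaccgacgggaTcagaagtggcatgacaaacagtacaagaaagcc
Rps12 (chr10:23785183-23787275, - strand): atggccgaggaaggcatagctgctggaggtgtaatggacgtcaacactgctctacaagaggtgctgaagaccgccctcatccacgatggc
Rps12-ps4 (chr7:30484701-30485097, - strand): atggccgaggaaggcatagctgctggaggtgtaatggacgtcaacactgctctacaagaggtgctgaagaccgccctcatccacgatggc
Rps2 (chr17:24718116-24721929, + strand): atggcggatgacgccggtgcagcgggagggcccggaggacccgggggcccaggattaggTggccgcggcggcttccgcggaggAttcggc
Rps2-ps13 (chrX:52898588-52899469, + strand): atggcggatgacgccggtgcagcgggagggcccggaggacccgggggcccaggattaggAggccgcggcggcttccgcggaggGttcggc

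All 4 copies are annotated as processed pseudogenes. Over the whole coding sequence, Rpl10 and Rpl10-ps5 were identical at 639 of 642 bases, Rps23 and Rps23-ps2 at 427 of 429, Rps12 and Rps12-ps4 at 394 of 396 and Rps2 and Rps2-ps13 at 872 of 879. Of the 50-base windows of the coding sequence, 86.0% of Rpl10, 73.7% of Rps23, 87.0% of Rps12 and 65.9% of Rps2 occurred unchanged in the copy. The sources used here do not say how reads with several matches were counted. Each comparison was therefore also run on family sums, in which a member was summed with other members and annotated pseudogenes that share a window with it, each copy going to the member with which it shares most windows, and with rows named as its pseudogenes. Other genes that share a window were not added. This made 83 families with 929 copy rows. Reads from Rpl22 are little affected, since 94.8% of the windows of its transcript of 2051 bases occurred in no other gene.

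Among the members, Rpl4 had the highest mean CPM in both tissues, at 462 ± 38.3 in the BLA (SD, n = 19) and 447 ± 17.9 in the hippocampus (SD, n = 20). In the BLA it was followed by Rps3 at 338.6 ± 55.8, Rpl8 at 274.6 ± 40.3, Rpl13a at 268.1 ± 35.7 and Rps14 at 244.3 ± 33.8 CPM. In the hippocampus Rplp1 at 277 ± 19.03, Rps3 at 263 ± 21.2, Rpl8 at 254.6 ± 11.1 and Rps14 at 253.9 ± 29.5 CPM came next, and these 4 lay within 1 SD of a neighbour in that order. Divided by transcript length, Rps15 (486 CPM per kb in the BLA) and Rplp1 (485) led in the BLA and Rplp1 (555) and Rps15 (473) in the hippocampus, beside a median of 60.9 and 60.6 CPM per kb over the 80 members with a transcript that passed in both tissues. Rplp1 codes for an acidic protein of the stalk that binds elongation factors, and Rps15 for a protein near the decoding site.

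The lowest levels belonged to minor forms, several of them known mainly from other tissues. Rpl10l, a testis form of Rpl10, had no count in any BLA library and at most 4 counts in a hippocampal library. Rpl39l, also known from testis, had at most 9 counts in a library, and Rps12l1 had a mean of 0.0737 CPM in the BLA and 0.972 CPM in the hippocampus. Rpl3l, the form of Rpl3 of heart and skeletal muscle, was at 0.223 ± 0.156 CPM in the BLA and 0.185 ± 0.0975 in the hippocampus. Rpl32l was at 2.13 ± 0.42 and 1.70 ± 0.217 CPM, so these 5 were the lowest in the BLA and in the hippocampus.

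Other minor forms were well above these levels. Rpl22l1 stood at 57.5 ± 9.09 CPM in the BLA and 48.2 ± 4.54 in the hippocampus. Rpl7l1 was at 37.8 ± 1.9 and 39.2 ± 2.71 CPM, Rpl6l at 12.9 ± 1.83 and 7.22 ± 0.829 CPM. Rps4l was at 24.2 ± 8.24 and 15.7 ± 3.4 CPM, and Rps27l, a paralog of Rps27 known as a p53 target, at 6.74 ± 1.16 and 9.79 ± 1.83 CPM.

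The members together held 0.5125 to 0.7809% of all counts in BLA libraries and 0.5397 to 0.7748% in hippocampal ones, and rows named as their pseudogenes added a mean of 0.1024% and 0.08235%. In the hippocampus the share was 0.667 ± 0.0543% in APP/Tau libraries (SD, n = 9) and 0.607 ± 0.0269% in controls (SD, n = 11). In the BLA it was 0.645 ± 0.0735% (SD, n = 9) and 0.592 ± 0.0734% (SD, n = 10). The groups overlapped in both tissues. Naive control replicate 1 had the highest share in the BLA, at 0.7809%, and naive APP/Tau replicate 5 the highest in the hippocampus, at 0.7748%.

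**Figure D1:**
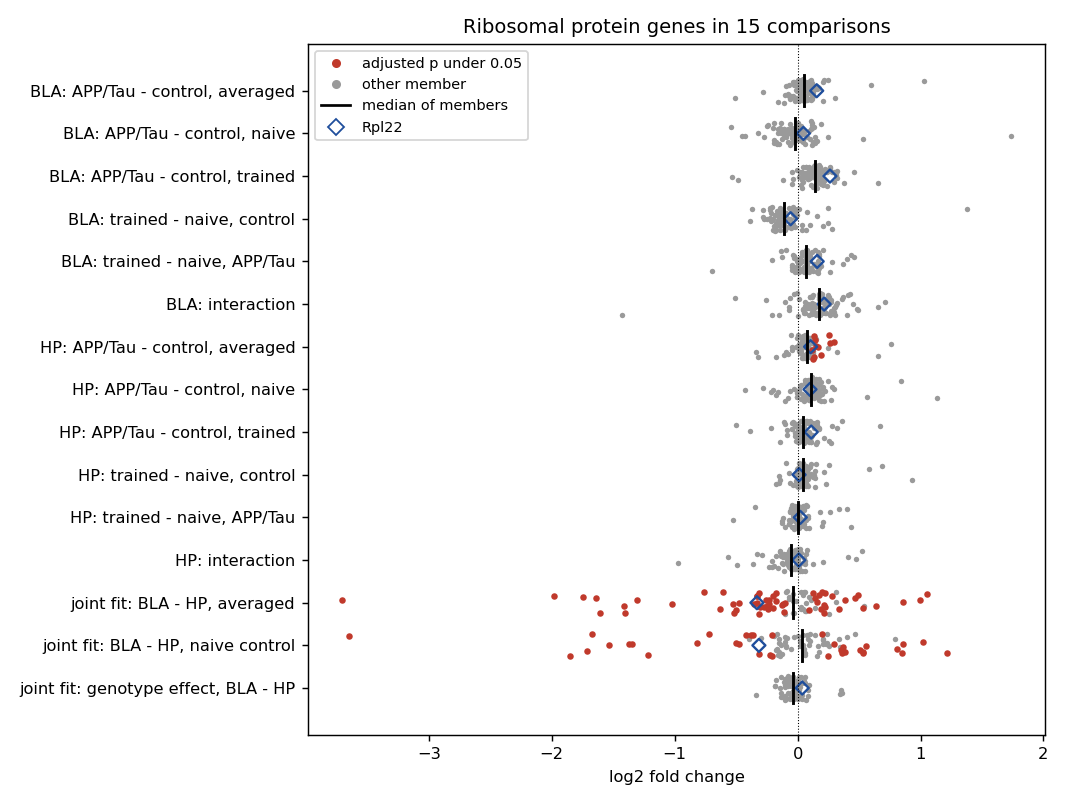
Log2 fold change of each member that passed the filter (points, red where adjusted p was under 0.05) in the 15 comparisons, by comparison from top to bottom, with the median of the members as a black line and Rpl22 as an open diamond. Called members appear in the averaged genotype comparison of the hippocampus (11) and in the averaged and naive-control region comparisons (58 and 36) and in no other.

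Genotype was compared first, to ask whether mice with both transgenes differ in these mRNAs. In the hippocampus, averaged over naive and trained mice, 11 of 86 members were higher in APP/Tau mice and none was lower. The share of all 25791 genes called was 11.1%, or 7.27% for higher genes alone, so that 11 of 86 lies near the share of all genes called and above the share called higher. This depended on the filter. With only genes at a mean of at least 1 CPM, 12 of 84 members were called, all higher. That is a smaller share than the 19.2% of 16641 genes called there in either direction. The median change of the members was 0.08 on the log2 scale, beside 0.00 over all genes, and 75 of the 86 had a value above 0. Of 51 large-subunit members 6 rose (median 0.06) and of 35 small-subunit members 5 rose (median 0.09). At an unadjusted p under 0.05, 27 members were found. Counts at this threshold, here and below, are given without the share of all genes that reach it. They are not read as a result about the members.

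Rps28, a small-subunit protein at the mRNA exit, had 63.67, 67.25 and 72.38 CPM as lowest, median and highest of 9 APP/Tau libraries and 57.57, 60.89 and 67.13 in 11 controls. It rose by 0.15 ± 0.03 (log2, SE), with adjusted p = 0.00997. All 9 APP/Tau libraries were above the control median, although the ranges overlapped. Rps4x, the X-linked gene of the small-subunit protein S4, had 134.1, 147.9 and 180.9 CPM in APP/Tau and 127.6, 131.6 and 154.2 in control libraries, a rise of 0.19 ± 0.05 (adjusted p = 0.021). For Rpl39, whose protein lines the exit tunnel of the nascent chain, the values were 20.05, 21.92 and 29.56 against 17.32, 19.49 and 22.51 CPM. Its rise of 0.27 ± 0.07 (adjusted p = 0.0215) was likewise carried by 9 of 9 libraries above the control median.

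Rps9, a small-subunit protein that binds early in assembly, ranged over 133.2, 148.7 and 216.1 CPM in APP/Tau mice and 129, 133.7 and 150.1 CPM in controls. The rise was 0.26 ± 0.07 (adjusted p = 0.0219), and the library at 216.1 CPM, naive replicate 5, stood apart from the other naive APP/Tau libraries at 146.1 to 148.7. Rpl7 had 148.9, 157 and 173.9 CPM against 130.1, 144.1 and 163.3, a rise of 0.14 ± 0.04 (adjusted p = 0.0291). Rps20 had 67.28, 72.14 and 81.68 CPM against 63.66, 66.92 and 75.72, a rise of 0.13 ± 0.04 (adjusted p = 0.0307). In none of the 86 members did the 2 genotypes separate without overlap, and the share of all genes that separate is not given here. The other 5 called members were Rplp2 (0.16), Rpl24 (0.12), Rpl32 (0.13), Rpl10a (0.14) and Rps27l (0.30). These 5 are named after their values were seen.

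**Figure D2:**
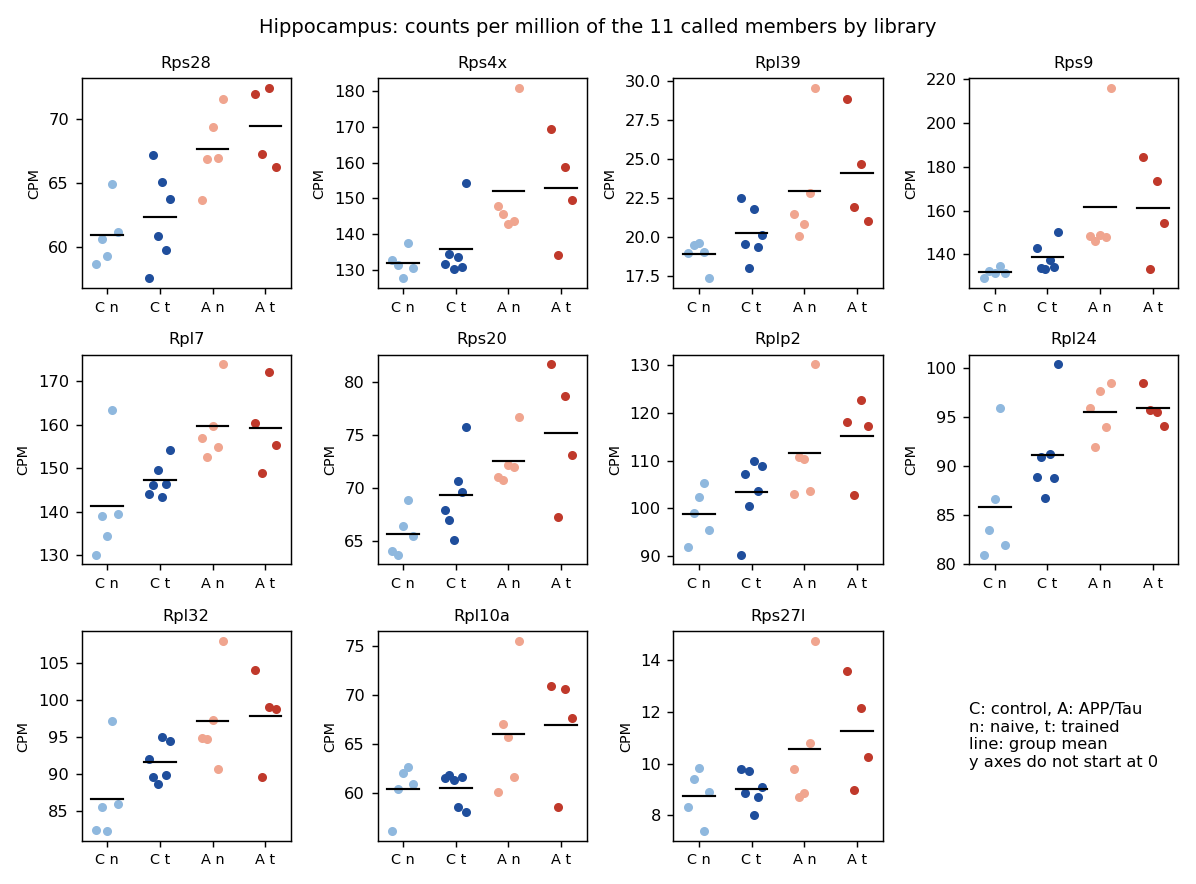
CPM of the 11 members called in the hippocampus, by library (points) in naive and trained control and APP/Tau mice, with the group mean as a line; the y axes do not start at 0. In each panel the APP/Tau points reach higher than the controls on average but overlap them, and for Rps9 and Rps4x a single naive APP/Tau library, at 216.1 and 180.9 CPM, lies above the rest.

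Microglial genes moved with this comparison. Of 11 microglial markers 10 rose in the hippocampus (median 1.18), and their mean log2 CPM was 4.949 to 6.838 in APP/Tau libraries and 4.573 to 4.887 in controls, with no overlap. None of these markers was at 0 in any library, the smallest count being 390, for Aif1. The 3 APP/Tau libraries with the highest microglial mean, at 6.838, 6.525 and 6.394, also had the highest shares of member counts, at 0.7748, 0.7204 and 0.7041%, and the library with the lowest microglial mean (4.949) had the lowest share of the 9, at 0.6159%. With the microglial mean as a covariate 0 of 86 members were called, where 0.0775% of all genes were, and the members' median was -0.03. The microglial mean did not overlap between the genotypes, so this fit cannot tell it apart from genotype. Oligodendrocyte markers (5 of 7) and astrocyte markers (5 of 7) rose too, and 3 of 7 hippocampal neuron markers fell; their part in the result was not tested.

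The count depended on single libraries. It was 1 without trained APP/Tau replicate 1 and also 1 without trained APP/Tau replicate 3, with 4.46% and 4.52% of all genes called, and 20 without trained APP/Tau replicate 2, with 16.9%. It was 4 without naive APP/Tau replicate 5 or naive control replicate 1, 5 without naive control replicate 2, 6 without naive control replicate 5 or trained control replicate 3, and 7 without naive control replicate 3. Rps28 was called in all 20 fits that leave out a library, Rps4x, Rpl39 and Rps9 in 18, and Rpl10a in 3. Without the 3 control libraries rich in 18S ribosomal RNA (up to 5.181% of counts) no member was called, with 4.43% of all genes called, while the median stayed at 0.07 and Rps28 had 0.14 (adjusted p = 0.053).

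Other tools and counting rules gave similar counts. DESeq2 called 13 members up and 1 down, with 16.8% of genes called. It added Rpl35a (0.13, adjusted p = 0.0495), Rpl7a (0.12, adjusted p = 0.0482) and, as the member that fell, Rps4l (-0.34, adjusted p = 0.0289). Limma-voom called 9 members with 10.4% of genes. On family sums 13 of 81 members rose, with 11.4% of genes called. Rplp0, the backbone of the stalk, then rose by 0.17 ± 0.04 (adjusted p = 0.0129), Rpl23 by 0.18 ± 0.05 (adjusted p = 0.019) and Rpl36 by 0.16 ± 0.05 (adjusted p = 0.0322), while Rpl10a missed the threshold (adjusted p = 0.0557).

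Genes around the ribosome are read against the same 11.1% of all genes called, 7.27% higher. Of 6 tested ribosomal proteins outside the symbol rule, 2 rose: Fau, a fusion of a ubiquitin-like protein with S30, by 0.19 (adjusted p = 0.0147) and Rps27rt by 0.18 (adjusted p = 0.0182). Of 33 elongation factors and other TOP mRNAs, Tpt1, a classic TOP mRNA, rose by 0.22 (adjusted p = 0.0376), and no other gene of that list was called. Of 10 snoRNA host RNAs, Snhg8 rose by 0.16 (adjusted p = 0.024), and of 16 genes of rRNA transcription, Myc rose by 0.35 (adjusted p = 0.0221).

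Ribosome biogenesis genes rose in 3 of 59 cases and fell in 1. Nop14, of small-subunit assembly, rose by 0.15 (adjusted p = 0.015), Fbl, the fibrillarin methyltransferase, by 0.20 (adjusted p = 0.0369) and Pes1 by 0.13 (adjusted p = 0.0491), while Bop1, which works in a complex with Pes1, fell by 0.18 (adjusted p = 0.0346). In the mTOR list, Eif4ebp1, an inhibitor of cap-dependent initiation, rose by 0.69 (adjusted p = 0.0193) and Pdcd4, another inhibitor of initiation, fell by 0.17 (adjusted p = 0.0314), out of 23. Of 78 mitochondrial ribosomal proteins Mrps6 (0.39) and Mrpl52 (0.15) rose and Mrpl14 (-0.26) fell, with a median of 0.00. Pseudogene rows of the members rose in 4 and fell in 2 of 161 cases, with a median of 0.10.

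Within naive mice of the hippocampus no member was called, where 0.202% of all genes were. The members' median was 0.11 and 28 had an unadjusted p under 0.05. DESeq2 and limma-voom called 0 members as well, with 2.88% and 0.0931% of all genes called. The smallest p-values were those of Rpl24 (0.16 ± 0.05, adjusted p = 0.148), Rpl30 (1.14 ± 0.37, adjusted p = 0.157) and Rpl7 (0.18 ± 0.06, adjusted p = 0.158). Within trained mice no member was called either, with 2.8% of genes called, a median of 0.04 and 10 members at an unadjusted p under 0.05. Rps28 (0.15 ± 0.05, adjusted p = 0.0974), Rps4l (-0.50 ± 0.17, adjusted p = 0.112) and Rpl39 (0.25 ± 0.10, adjusted p = 0.17) came closest. In trained mice DESeq2 called Rps28 up and Rps4l down, with 6.16% of all genes called. Limma-voom called 0 members, with 0.136% of all genes called. All 11 members that rose in the average had a value above 0 in naive and in trained mice alike.

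In the BLA no member was called in the averaged genotype comparison, where 1.18% of 23168 genes were. The median of the 85 members was 0.05, beside 0.01 over all genes, and 8 had an unadjusted p under 0.05. Rps4x had 121.6, 140.9 and 172.5 CPM (lowest, median, highest) in 9 APP/Tau libraries and 109.8, 121 and 142.3 in 10 controls, a difference of 0.20 ± 0.06 (adjusted p = 0.103). Rpl24, a large-subunit protein that bridges to the small subunit, had 60.42, 64.99 and 79.49 CPM against 54.34, 59.95 and 66.94, a difference of 0.16 ± 0.05 (adjusted p = 0.12). For both genes all 9 APP/Tau libraries were above the control median and the ranges overlapped. Without trained APP/Tau replicate 2, the BLA library with the lowest microglial mean of the 9 (4.802), 4 members were called, Rps4x, Rpl22 and Rpl24 among them. Over the BLA fits with a library left out, 0.191 to 9.21% of all genes were called. The share for that single fit is not given here, so the 4 calls are not read as a result about the members.

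Microglial genes moved with genotype in the BLA too. Of 11 microglial markers 8 rose in the averaged comparison (median 0.74), and their mean log2 CPM was 4.802 to 6.206 in APP/Tau libraries and 4.584 to 4.969 in controls, which overlap. None was at 0 in any library, the smallest count being 297, for Tyrobp. The APP/Tau library with the highest microglial mean, trained replicate 1, also had the highest member share of the 9, at 0.7547%. Trained replicate 2, with the lowest mean (4.802), had the lowest share, at 0.5613%. The order did not hold throughout: trained replicate 3, with the next highest mean (5.815), had 0.582%, and trained replicate 4 had 0.7535% at 5.347. The control library with the highest share, naive replicate 1 at 0.7809%, had a microglial mean of 4.664. With the microglial mean as a covariate the members' median in the averaged comparison was -0.04, with 30 of 85 values above 0, where it was 0.05 with 64 above 0 without it.

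In naive mice of the BLA, 0 of 85 members were called (0.0388% of genes), with a median of -0.02, 33 values above 0 and 2 members at an unadjusted p under 0.05. The median was 0.06, with 59 above 0, without naive control replicate 1, the BLA library richest in 18S RNA, 0.00 without naive APP/Tau replicate 4, and -0.08 with the microglial covariate. Without naive control replicate 1 the averaged median was 0.10. In naive mice Rpl30 differed by 1.74 ± 0.54 (adjusted p = 0.261), Rps4l by -0.54 ± 0.25 (adjusted p = 0.372) and Rpl31 by 0.19 ± 0.09 (adjusted p = 0.385). In trained mice 0 were called (0.0432% of genes), while the median was 0.14, 78 of 85 values were above 0 and 7 had an unadjusted p under 0.05. With the microglial covariate that median was 0.04 and 54 values were above 0. In trained mice Rpl22 differed by 0.26 ± 0.07 (adjusted p = 0.204), Rps4x by 0.29 ± 0.09 (adjusted p = 0.27) and Rps27l by 0.38 ± 0.15 (adjusted p = 0.375). DESeq2 and limma-voom also called 0 members in each of the 3 genotype comparisons of the BLA. DESeq2 called 5.14% of all genes in the averaged comparison, 0.466% in naive and 0.846% in trained mice. Limma-voom called 0.276%, 0.0432% and 0.0345%, in the same order.

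The difference of the genotype effect between the regions was tested in the joint fit of 39 libraries. No member was called, with 0.0262% of all genes called and 1 member at an unadjusted p under 0.05. DESeq2 and limma-voom called 0 members as well, with 0.153% and 0.015% of all genes called. Rpl39 had the smallest p, with an effect lower in the BLA by -0.34 ± 0.16 (adjusted p = 0.579), followed by Rps28 (-0.13 ± 0.09, adjusted p = 0.72) and Rpl7l1 (-0.08 ± 0.06, adjusted p = 0.784). Of the 11 members called in the hippocampus, 10 had a value above 0 in the BLA, from 0.03 for Rps28 to 0.25 for Rps27l, and Rpl39 had -0.06.

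Training was compared within each genotype, to ask whether the mRNAs differ 1 h after fear conditioning. None of the members was called in any of the 6 comparisons of training or its interaction with genotype, and 0% of all genes were. DESeq2 and limma-voom also called 0 members in each. The share of all genes called was at most 0.0604% with DESeq2 and 0% with limma-voom. In hippocampal controls the median was 0.05 with 4 members at an unadjusted p under 0.05, and in hippocampal APP/Tau mice it was 0.00 with 2 such members. Rpl22l1 had 40.45 to 46.9 CPM in 5 naive control libraries (median 44.21) and 47.38, 49.79 and 57.97 in 6 trained ones. These groups did not overlap, but the share of all genes that separate in this way is not given here. Its difference was 0.22 ± 0.07, with an unadjusted p of 0.00404 and an adjusted p of 1. In APP/Tau mice Rpl22l1 had 47.65 to 54.24 CPM in naive and 39.88 to 52.41 in trained libraries (-0.07 ± 0.07), and its interaction was -0.29 ± 0.10 (adjusted p = 0.984).

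Other members with the smallest p in hippocampal controls were Rpl30 (0.93 ± 0.35) and Rpl17 (0.23 ± 0.09), both with adjusted p = 1. In APP/Tau mice these were Rps7 (-0.11 ± 0.04), Rplp0 (0.43 ± 0.19) and Rps4l (-0.35 ± 0.17), each with adjusted p = 0.986. For the interaction in the hippocampus they were Rpl22l1, Rpl17 (-0.36 ± 0.13) and Rps7 (-0.14 ± 0.06), with adjusted p = 0.984, a median of -0.05 over the members and 4 at an unadjusted p under 0.05.

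In BLA controls 73 of 85 members had a lower value after training, with a median of -0.11, and 1 had an unadjusted p under 0.05. That median was -0.02 without naive control replicate 1, the library with the highest member share and an 18S share of 0.8928%, where the other BLA libraries had up to 0.4478%. Rpl30 (1.38 ± 0.53), Rpl12 (-0.18 ± 0.09) and Rpl13a (-0.21 ± 0.11) had the smallest p, each with adjusted p = 1. In BLA APP/Tau mice the median was 0.07, and Rplp0 (0.46 ± 0.18, adjusted p = 0.841), Rpl22 (0.16 ± 0.07, adjusted p = 0.841) and Rpl21 (-0.70 ± 0.34, adjusted p = 0.847) came first. The interaction in the BLA had a median of 0.18, or 0.08 without the same library, with Rps13 (0.48 ± 0.21), Rpl5 (0.36 ± 0.16) and Rpl22 (0.22 ± 0.10) first, each with adjusted p = 0.949. At an unadjusted p under 0.05 there were 2 members for training in BLA APP/Tau mice and 4 for the interaction.

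The regions were compared to see whether the members differ between BLA and hippocampus. Averaged over the 4 conditions, 21 of 86 members were higher and 37 lower in the BLA, when 64.5% of all 26725 genes were called, 30% higher and 34.5% lower. The median of the members was -0.04, beside -0.05 over all genes. The split turned when copies were counted with the members: 30 were higher and 29 lower with the rows named as pseudogenes added (64.5% of genes called), and 33 higher and 21 lower of 81 on family sums (64.2% of genes called). Region and RNA input cannot be told apart in these data, and the punches also differed in cell types, with 7 of 7 oligodendrocyte markers lower and 3 of 3 inhibitory neuron markers higher in the BLA.

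The members with the smallest p among those higher in the BLA kept that direction on family sums in the 4 cases with a family (Rpl31, Rpl41, Rpl11 and Rps3). Rpl31 had 56.02, 65.47 and 83.67 CPM (lowest, median, highest) in 19 BLA libraries and 29.34, 32.25 and 37.65 in 20 hippocampal libraries, which do not overlap. It was higher by 1.05 ± 0.04 (adjusted p = 1.96e-22), and by 0.91 on family sums. Rpl41, which codes for a very short basic peptide of the large subunit, had 61.11, 78.36 and 166.2 CPM against 35.5, 41.81 and 50.28, a difference of 1.00 ± 0.09 (adjusted p = 2.22e-12). Rpl11, known to bind Mdm2 when free of the ribosome, was higher by 0.49 ± 0.05 (adjusted p = 4.59e-11). Rps3, which lines the mRNA entry channel, was higher by 0.38 ± 0.06 (adjusted p = 3.22e-07). The 2 others were Rpl6l (0.86 ± 0.06, adjusted p = 6.07e-15) and Rps3a2 (0.47 ± 0.07, adjusted p = 1.16e-07), neither with a transcript of its own in the annotation used.

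Of the 6 members lower in the BLA with the smallest p, 4 remained lower on family sums (Rpl27, Rps12, Rps27a and Rps13), Rpl10 was no longer called and Rps23 turned. Rpl10, required for the joining of the subunits, had 19.64, 23.59 and 27.54 CPM in the BLA and 53.19, 63.57 and 71.06 in the hippocampus, lower by -1.41 ± 0.04 (adjusted p = 8.42e-26). Rpl10-ps5, the copy printed above, had 19.3 to 28.08 CPM in BLA libraries and 0.07292 to 0.3068 in hippocampal ones. The sum of the Rpl10 family differed by -0.04 ± 0.04 (adjusted p = 0.362).

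Rps23, a protein of the decoding centre, had 1.553, 2.148 and 3.111 CPM in the BLA and 6.837, 8.912 and 11.22 in the hippocampus, lower by -1.98 ± 0.07 (adjusted p = 3.39e-23). Rps23-ps2 went the other way, with 8.068 to 15.28 CPM in BLA libraries and 0.1841 to 0.6862 in hippocampal ones, and Rps23-ps1 had a mean of 19.8 and 13.9 CPM. The Rps23 family was higher in the BLA by 0.67 ± 0.06 (adjusted p = 6.2e-13), so the direction turned with the copies.

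For Rps12 the values were 9.92, 12.48 and 17.61 CPM in the BLA and 35.37, 38.86 and 49.51 in the hippocampus, lower by -1.64 ± 0.06 (adjusted p = 5.39e-24). Its copy Rps12-ps4 had a mean of 10.98 CPM in the BLA and 1.13 in the hippocampus, and the family remained lower in the BLA by -0.60 ± 0.06 (adjusted p = 3.26e-10). Rpl27 was lower by -1.61 ± 0.05 (adjusted p = 2.06e-26), the smallest p of the members, and on family sums by -1.20. Rps27a, made as a fusion with ubiquitin, was lower by -1.40 ± 0.06 (adjusted p = 1.02e-21) and on family sums by -0.51. Rps13 was lower by -1.31 ± 0.06 (adjusted p = 6e-20) and on family sums by -0.65.

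The spread of the members was narrower with copies counted. The SD of their region difference was 0.68 over 86 rows and 0.58 over 86 with rows named as pseudogenes added. It was 0.43 over 81 families. A difference of more than 1 on the log2 scale was seen in 10 rows, in 4 with pseudogene rows and in 3 families. The families hold no separate value for Rps12l1, which had -3.71 and failed the filter in the BLA. Their SD is therefore not over the same members as that of the rows. Rpl17, chosen here after its values were seen, went from -1.02 to 1.62: the gene itself had a mean of 3.002 CPM in the BLA and 6.22 in the hippocampus, and its copy Rpl17-ps5 19.9 and 2.93 CPM. Of 173 pseudogene rows tested, 95 were higher and 40 lower in the BLA, with a median of 0.35, and the sums depend on which copies are added.

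**Figure D3:**
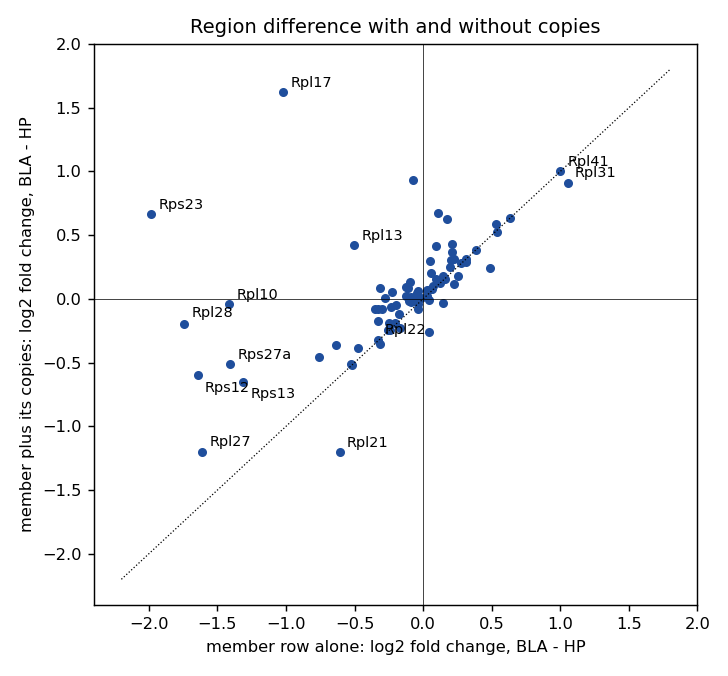
Region difference (BLA minus hippocampus, log2 fold change) of each member's row alone on the x axis and of the member with its copies on the y axis, with the line of equality dotted. Rps23 and Rpl17 move from below 0 to above 0, Rpl10 moves to -0.04, and Rpl31, Rpl41 and Rpl22 stay near the line.

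In naive controls alone, 17 members were higher and 19 lower in the BLA, when 41.1% of genes were called, 20.4% higher and 20.7% lower. On family sums 29 of 81 were higher and 11 lower (40.7% of genes called). Rpl31 (1.02 ± 0.08), Rpl6l (0.85 ± 0.12), Rpl41 (1.22 ± 0.17), Rpl11 (0.55 ± 0.10), Rpl39 (0.86 ± 0.16) and Rpl22l1 (0.54 ± 0.11) were higher, with adjusted p from 1.14e-12 to 0.000108. The 6 members lower with the smallest p were Rpl27 (-1.72 ± 0.09), Rpl10 (-1.37 ± 0.08), Rps12 (-1.53 ± 0.11), Rps23 (-1.85 ± 0.14), Rps27a (-1.34 ± 0.11) and Rps13 (-1.22 ± 0.12), the same 6 as in the average. Without the libraries rich in 18S RNA the split was 9 higher and 29 lower of 86 (37% of genes called).

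The lists of genes around the ribosome are to be read against the 64.5% of all genes called between the regions (30% higher, 34.5% lower). Mitochondrial ribosomal proteins were higher in the BLA in 35 and lower in 14 of 78 cases, with Mrps14 (0.40), Mrpl27 (0.42) and Mrps36 (-0.42) having the smallest p. Elongation factors and TOP mRNAs were higher in 9 and lower in 13 of 33 cases, among them Tpt1 (-0.73), Eif4g2 (-0.31) and Naca (-0.41). The biogenesis list had 20 higher and 16 lower of 59, and the mTOR list 8 higher and 13 lower of 23, with Rps6kb1, the S6 kinase, at -0.37 and Rheb, the activator of mTOR, at 0.36.

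Rpl22, the gene that carries the tag, was compared with the rest because all libraries come from RiboTag mice. It had 60.44, 64.82 and 79.12 CPM (lowest, median, highest) in the BLA and 78.3, 84.66 and 99.23 in the hippocampus. Per kb of transcript this is a mean of 33.0 and 42.0 CPM, at rank 56 and 54 of the 80 members ranked. The difference between regions was -0.33 ± 0.03 (adjusted p = 2.77e-11), and -0.32 on family sums. Rpl22l1 went the other way, higher in the BLA by 0.28 ± 0.05 (adjusted p = 3.07e-05). Among the 86 members Rpl22 ranked 69 from the top, so that more members were above than below it.

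Within a library, Rpl22 was above the median of the other members by 0.52 ± 0.11 in the BLA (log2 CPM, SD, n = 19), with a range of 0.32 to 0.77, and by 0.75 ± 0.07 in the hippocampus (SD, n = 20), with a range of 0.62 to 0.88. The lowest BLA value was that of naive control replicate 1. Against the mean of the other members the values were 0.75 and 0.94, so their size depends on the reference taken. CPM is not divided by transcript length. Per kb of transcript Rpl22 was below the median of the members ranked, at 33.0 against 60.9 in the BLA and 42.0 against 60.6 in the hippocampus. Since every mouse carried the RiboTag allele, no library without it allows a comparison of tagged with untagged Rpl22.

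For genotype, Rpl22 had 80.31, 88.48 and 99.23 CPM in 9 hippocampal APP/Tau libraries and 78.3, 83.88 and 89.63 in 11 controls, a difference of 0.11 ± 0.04 (adjusted p = 0.0913), at rank 28 of 86. Rpl22l1 differed by 0.06 ± 0.05 (adjusted p = 0.452). In the BLA Rpl22 had 62.38, 70.79 and 79.12 CPM in APP/Tau and 60.44, 62.91 and 76.11 in control libraries, a difference of 0.16 ± 0.05 (adjusted p = 0.115), and Rpl22l1 differed by -0.07 ± 0.09 (adjusted p = 0.752). The members' own median was 0.05 there, and Rpl22 ranked 10 of 85. The difference of its genotype effect between regions was 0.04, with a 95% interval of -0.09 to 0.16 (adjusted p = 0.936).

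By group, naive hippocampal mice differed between genotypes by 0.10 ± 0.06 in Rpl22 (adjusted p = 0.407) and by 0.21 ± 0.07 in Rpl22l1 (adjusted p = 0.175), and trained ones by 0.11 ± 0.06 (adjusted p = 0.283) and -0.08 ± 0.07 (adjusted p = 0.521). In naive BLA the values were 0.05 ± 0.07 (adjusted p = 0.782) and -0.17 ± 0.13 (adjusted p = 0.549), and Rpl22l1 differed by 0.04 ± 0.14 in trained BLA (adjusted p = 0.949). After training, Rpl22 differed by 0.01 ± 0.05 in hippocampal controls, 0.02 ± 0.06 in hippocampal APP/Tau mice and -0.06 ± 0.07 in BLA controls. Rpl22l1 differed by -0.16 ± 0.13 in BLA controls and 0.06 ± 0.14 in BLA APP/Tau mice, none of them called. The interaction was 0.01 ± 0.08 for Rpl22 in the hippocampus and 0.21 ± 0.19 for Rpl22l1 in the BLA.

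**Figure D4:**
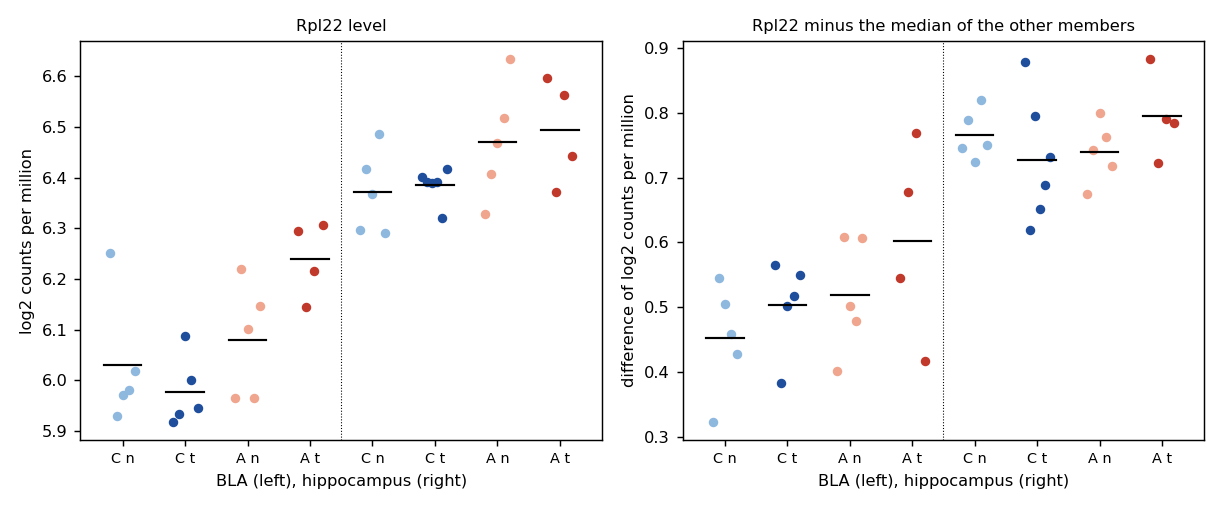
Rpl22 in each library (points; the line is the group mean) as log2 CPM, left, and as its difference from the median of the other members, right, in naive (n) and trained (t) control (C) and APP/Tau (A) mice. The BLA libraries lie lower in both panels, with differences of 0.32 to 0.77 against 0.62 to 0.88 in the hippocampus. Levels are not divided by transcript length.

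A few members fell into separate levels, a pattern chosen for description after its values were seen. The labels number the libraries, and the same number recurs in both tissues with the same genotype and training, 19 numbers in all, without saying that it marks a mouse. In the hippocampus Rps2, a small-subunit protein of the mRNA entrance, had 12.51 to 16.1 CPM in 6 libraries, 45.74 to 64.91 in 10 and 94.24 to 111.8 in 4. In the BLA the libraries of the same 6 numbers were again the lowest, at 25.87 to 35.59 CPM, and the others had 68.63 to 141. The 6 were 3 naive controls, 2 trained controls and 1 naive APP/Tau library in each tissue.

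Rps2-ps13, the copy shown above, had 6.635 to 8.726 CPM in the 4 hippocampal libraries where Rps2 was highest and 32.34 to 39.13 in the 6 where it was lowest. With its copies, Rps2 varied little: the coefficient of variation in the hippocampus was 60.4% for the row and 6.65% for the family.

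Rps3a1 and Rps3a3, both members by symbol, gave a similar picture. Rps3a3 is annotated as a processed pseudogene on chromosome 13, and it was identical to the coding sequence of Rps3a1 on chromosome 3 at 783 of 791 bases. In the hippocampus Rps3a3 had 7.194 to 10.7 CPM in 9 libraries, 39.44 to 46.3 in 10 and 65.25 in naive control replicate 5. Rps3a1 was at its lowest, 13.95 CPM, in that same library, where the others had 43.23 to 87.4. In the BLA the library of the same number again had the lowest Rps3a1, at 9.949 CPM, and the highest Rps3a3, at 69.27. The coefficient of variation of Rps3a1 in the hippocampus was 31.6% for the row and 7.09% for its family.

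Rpl30, which binds RNA at the subunit interface, had 7.924 to 10.65 CPM in 10 hippocampal libraries and 17.18 to 35.14 in the other 10. The same 10 numbers were low in the BLA, at 5.347 to 10.78 CPM against 20.52 to 43.05. All 5 naive controls were among them in both tissues, with 2 of 5 naive APP/Tau libraries. This is the spread behind the Rpl30 differences of 1.14 and 1.74 between the genotypes in naive mice, which were not called. Its family kept a coefficient of variation of 33.5% in the hippocampus, against 52.6% for the row.

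Rpl21 was lowest in the library of the same number in both tissues, trained APP/Tau replicate 1, at 18.5 CPM in the hippocampus and 5.596 in the BLA, where the next libraries had 41.8 and 27.75. Rpl29 was lowest in the same 3 numbers, at 17.31 to 18.98 CPM in the hippocampus, with the others at 29.57 to 33.41, and at 13.39 to 18.61 in the BLA, with the others at 25.06 to 33.74. In all, 6 of 85 members (7.06%) had a gap of over 0.3 log2 units in both tissues with the same numbers below it, and 332 of 22729 genes (1.46%) had such a gap.

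The 6 genes most alike in both tissues were taken for each of these 6 members, by the smaller absolute correlation of log2 CPM over the 20 hippocampal and the 19 BLA libraries. Of the 36, 9 lay on the chromosome of the member, 25 on another and 2 had no position. The share of all genes on the same chromosome is not given here. For Rps2, the named genes were Uggt2 on chromosome 14, with -0.87 in the hippocampus and -0.85 in the BLA, and Gnptg on chromosome 17, 0.51 Mb from Rps2, with 0.84 and 0.81. For Rpl30 on chromosome 15 they were Cthrc1, at 4.64 Mb, with 0.93 and 0.90, and Erich5, at 0.01 Mb, with -0.88 and -0.89. Rpl21 had Hmgb1, 2.21 Mb away on chromosome 5, with 0.965 and 0.934, and Rpl29 had Abhd14a, 0.01 Mb away on chromosome 9, with 0.72 and 0.77. Rps3a1 had Fcrl1, 1.24 Mb away on chromosome 3, with 0.74 and 0.72. Rps3a3 on chromosome 13 had Arhgef11, Rbm46 and Phtf1, all on chromosome 3, with -0.76 and -0.72 for Arhgef11. Copies were among the most alike as well. Rps3a3 had Rps3a1 itself, with -0.80 in the hippocampus and -0.71 in the BLA. Rpl21 had Rpl21-ps8 on chromosome 18 (0.987 and 0.948) and Rpl21-ps11 on chromosome 3 (0.901 and 0.98). Rpl30 had Rpl30-ps1 on chromosome 6, with opposite signs (0.873 and -0.872). The rest of the 36, mostly predicted genes, are not named. The libraries of a tissue share their preparation, and what sets these levels was not tested.

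**Figure D5:**
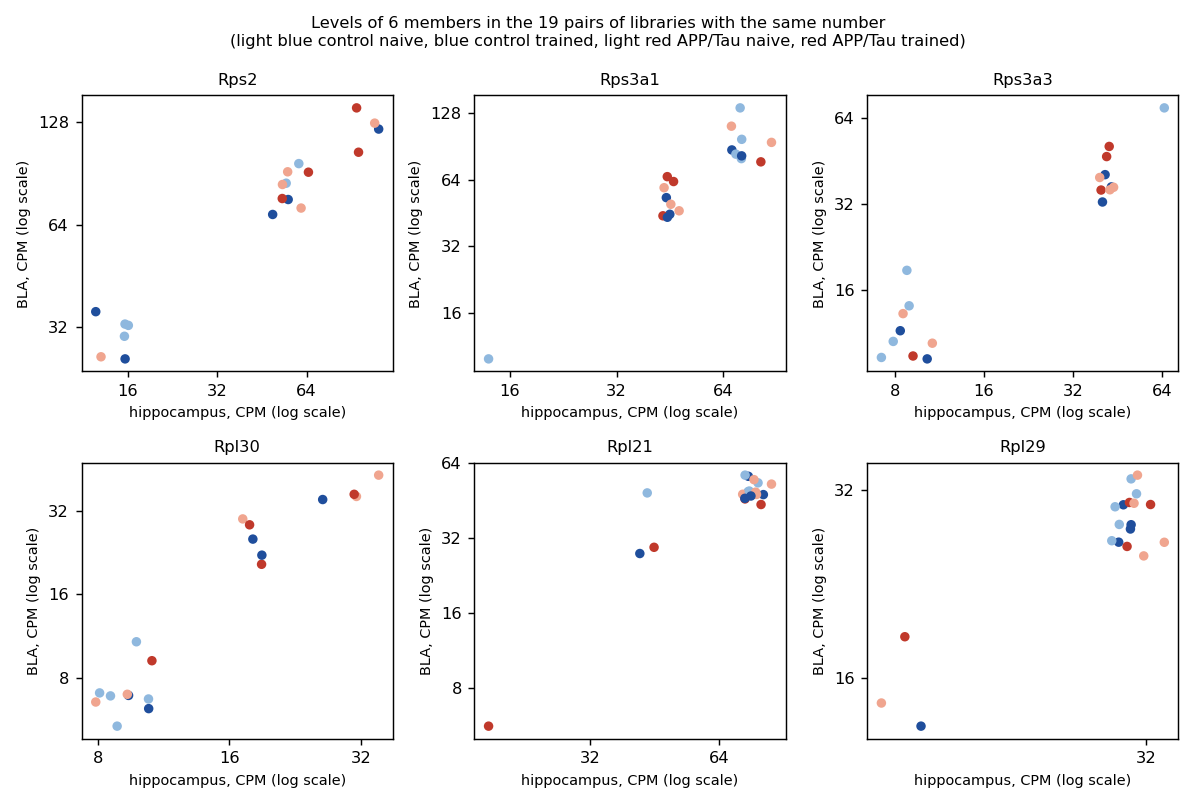
CPM, with the hippocampal library on the x axis and the BLA library of the same label number on the y axis, by genotype (colour). The 6 panels show Rps2, Rps3a1, Rps3a3, Rpl30, Rpl21 and Rpl29 on log axes. In each panel a gap separates the same libraries in both tissues, such as the 6 libraries with Rps2 at 12.51 to 16.1 CPM in the hippocampus and 25.87 to 35.59 in the BLA.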

How the data were processed

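The authors deposited raw read counts, 1 table for each tissue with a row for each gene symbol, and no scaling had been applied to the whole numbers in them. Per the submitters' processing notes, reads were trimmed with Trimmomatic 0.39 and the build was mm39; per the labels' protocols reads were paired, 50 bases long, from poly(A) libraries of 10 ng (BLA) or 50 ng (hippocampus) of RNA. Which aligner, counter, annotation and strand setting were used, and what became of reads with several matches, is not given in the sources used here. Total counts were 50.3 to 74.29 M (BLA) and 92.12 to 128.3 M (hippocampus).

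Groups follow the labels, whose sample numbers are taken as separate mice; p-values measure only the spread between these samples. Each tissue was fitted once with its 4 group means, and all 39 libraries once with 8, in R 4.3.3 with edgeR 4.0.16 (TMM factors, filterByExpr with a minimum count of 10 and a minimum total of 15, quasi-likelihood F test, Benjamini-Hochberg adjustment over all genes tested, 2-sided, adjusted p under 0.05). That gave 15 comparisons. The joint fit treats libraries as independent, although the same mouse may have given both tissues. The averaged genotype fits were tested on simulated data. At a true log2 change of 0.15 they called 2 of 50 changed genes in the hippocampus and 0 of 50 in the BLA. At 0.3 they called 18 and 8 of 50. Changes of these sizes were thus mostly missed in the simulation, which called 94 changed genes in the hippocampus and 84 in the BLA. The real fits called 2854 and 273 genes, and the adjusted p depends on that number. These rates therefore do not carry over to the members, and a member that was not called may still differ. Log2 CPM used a prior count of 2. CPM per kb and shared 50-base windows used GENCODE M21 transcripts (GRCm38), and distances between genes used the RefSeq table of GRCm38.p6.

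Members and gene lists were chosen with earlier results of these data known. Named were Rpl22 and Rpl22l1, up to 6 called members per direction or else the 3 with the smallest p, minor forms, the 5 highest and 5 lowest members, and up to 3 called genes per list. Alternatives were DESeq2 1.42.0, limma 3.58.1 (voom), RLE and upper-quartile factors, 2 other filters, only the groups compared, a replicate block, covariates for microglial and for striatal markers, pseudogene rows added, libraries left out, and family sums, which were added after the pseudogene counts had been seen. The called genes of the pathway lists are given only for the averaged hippocampal genotype and region comparisons, and in the BLA none of those lists held a gene called for genotype. No library was left out of the results as first given.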

Additional observations from a re-analysis of the deposited data

Results flagged for a closer look

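In groups of 4 to 10 libraries, the highest or lowest library was checked for a gap to the others that is large beside the range of the group (Dixon's criterion at 95%). This marked 26 of 168 groups of values. The 21 values checked were the member share, the mean log2 CPM, Rpl22 minus the median, and single genes. The genes were the 11 called hippocampal members, Rpl22, Rpl22l1, and Rps2, Rps3a1, Rps3a3, Rpl30 and Rpl21, which have separate levels. Chance marks about 1 in 20 of unselected and independent groups. These were neither, so the 26 cannot be set against that rate.

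Naive control replicate 1 of the BLA was high in 6 of these. Its share of member counts was 0.7809% (others 0.5353 to 0.6029), with Rpl10a at 82.43 CPM (53.77 to 59.41), Rpl22 at 76.11 (60.94 to 64.82), Rpl39 at 54.66 (25.9 to 31.32), Rplp2 at 137.4 (82.52 to 96.94) and Rps20 at 109.2 (72.99 to 80.55). Naive APP/Tau replicate 5 of the hippocampus was high in 5. Its share was 0.7748% (0.6172 to 0.6509), with Rplp2 at 130.1 CPM (103 to 110.7), Rps20 at 76.71 (70.73 to 72.14), Rps4x at 180.9 (142.7 to 147.9) and Rps9 at 216.1 (146.1 to 148.7).

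Members with separate levels made up 7 more. Rpl21 was low at 43.5 CPM in naive control replicate 1 of the hippocampus (others 73.7 to 79.03) and at 41.8 in trained control replicate 1 (73.61 to 81.33). Rps3a1 was high at 81.58 in trained APP/Tau replicate 3 (43.23 to 46.31) and low at 13.95 in naive control replicate 5 (69.38 to 72.05), both hippocampal. Rps3a3 was low at 9.205 CPM and high at 65.25 in the same libraries (39.86 to 42.47 and 7.194 to 8.93), and high at 69.27 in naive control replicate 5 of the BLA (9.28 to 18.72).

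The remaining 8 were single values in controls. In the BLA these were Rpl7 at 140.9 CPM in trained replicate 2 (118 to 123.4) and Rps20 at 88.78 in trained replicate 3 (70.9 to 73.67). In the hippocampus Rpl22 was low at 79.93 in trained replicate 5 (83.81 to 85.37), and Rpl24 at 100.4 (86.68 to 91.19) and Rps4x at 154.2 (130.1 to 134.3) were high in trained replicate 6. Rpl32 at 97.23 (82.25 to 85.97) and Rpl7 at 163.3 (130.1 to 139.4) were high in naive replicate 4, and Rpl39 was low at 17.32 in naive replicate 5 (18.97 to 19.59).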

How the results depend on the processing

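Of 3356 values of named genes under an alternative, 3309 kept their direction and their side of the threshold, 28 lost the call, 11 gained it and 8 changed sign; the cause was not tested. With the microglial covariate the hippocampal genotype effect, averaged, was -0.0323 for Rps4x, -0.0033 for Rpl39 and -0.0944 for Rps9. In that fit the covariate and genotype cannot be told apart. With pseudogene rows added the region difference of Rps23 was 0.4981 (averaged) and 0.6617 (naive controls), and on family sums 0.666 and 0.836, where Rpl10 in naive controls was 0.0027. The 11 called members of the averaged hippocampal genotype comparison became 4 with no filter, in which 40331 genes were tested, 17 with the replicate block, 0 without the libraries rich in 18S RNA (17 libraries left) and 0 with the microglial covariate, and 1 to 20 with a library left out. The shares of all genes called in these fits were, in order, 5.72%, 16.1%, 4.43%, 0.0775% and 4.46 to 16.9%. In trained hippocampal mice the 0 became 2 with DESeq2, 1 with only the 2 groups, 1 on family sums, and 0 to 4 with a library left out. There 6.16%, 2.34%, 2.89% and 0.236 to 8.46% of all genes were called. With a library left out the averaged genotype count of the BLA was 0 to 4 and its trained count 0 to 1. The shares of all genes called were 0.191 to 9.21% and 0.0339 to 2.87%. Rpl22 stood above the mean of the other members by 0.7458 (BLA) and 0.9387 (hippocampus), and above the other large-subunit members by 0.9782 in the hippocampus. The share of counts with pseudogene rows was 0.7194% and 0.7164%, and the median log2 CPM 5.579 and 5.698. Replicate numbers of the titles did not pair the libraries: deviations of same-numbered libraries correlated above 0.1 in 2 of 27 pairs in the BLA and 6 of 27 in the hippocampus. The numbers in the descriptions, shared by the tissues, gave a correlation above 0.1 in 15 of 19 pairs, and 17 of 19 libraries correlated best with their own number, a hint from the data and not the design. With that number as a replicate block the averaged region comparison had 25 members higher and 39 lower (66% of genes called). The naive-control one had 21 and 22 (43.9% of genes called). Low counts limit Rpl10l, Rpl39l and Rpl3l, which had at most 35 counts in a library.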
